A study of Mus musculus with 29 samples.

Results

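The effect of deleting Rnaseh2b from the intestinal epithelium was compared between isolated crypts and cultured intestinal organoids of the mouse, gene by gene. The comparison used 14 of the 29 poly(A) RNA libraries of the series. The crypt set held 4 libraries of H2BdIEC mice, in which the floxed Rnaseh2b gene is deleted in intestinal epithelial cells, and 4 of H2B flox/flox mice, which carry the floxed gene undeleted and served as controls. All mice and organoids were of the C57BL/6 strain, and the crypts came from mice 52 weeks old. The organoid set held 3 libraries of H2BdIEC organoids, replicates A, B and C, and 3 of control organoids, also A, B and C. The control organoids are titled as wild type, but their genotype label gives floxed Rnaseh2b and p53 genes. Both kinds of control are thus labelled with floxed alleles, but the label of the control crypts gives floxed Rnaseh2b alone. The promoter of the deleting transgene and the age of the organoid donors are not given in the sources used here. The labels do not say that the libraries of a group came from separate mice or cultures, so the p-values reflect the scatter of these libraries alone, part of which may be technical.

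The libraries were chosen by design label, and no measured value entered the rule, but earlier results of these data were known. The gene lists were chosen with the same knowledge, so their counts describe these data and are not independent support. The quantity reported for each gene is the interaction, that is the log2 fold change of H2BdIEC over control in crypts minus the log2 fold change of H2BdIEC over control in organoids. A positive interaction means that the deletion effect was higher in crypts than in organoids. Of 43008 autosomal Ensembl genes counted in both sets, 16463 passed the filter on low counts and were tested. Levels are counts per 1000000 counts (CPM), scaled by TMM factors over these genes, and a call is an adjusted p under 0.05 in edgeR's quasi-likelihood test with Benjamini-Hochberg adjustment over the 16463 genes. Values after ± are the SD for levels and the SE for log2 values, with n = 4 libraries per crypt group and n = 3 per organoid group. Crypts and organoids were counted and deposited as separate sets, and their controls differ in the labelled p53 genotype. Culture, age, set and control genotype therefore cannot be told apart in a difference of effect.

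RNase H2 is a nuclear enzyme of 3 subunits that cuts out ribonucleotides left in DNA by replication and removes RNA from RNA and DNA hybrids, and Rnaseh2b is its B subunit. Without it, ribonucleotides stay in the genome, DNA breaks accumulate, and the p53 pathway and innate sensing of nucleic acids are known to become active in mouse tissues. Isolated crypts hold stem cells, dividing progenitors, Paneth cells and neighbouring cells as they were in the animal. Organoids are epithelium alone, grown in a matrix with growth factors, without immune cells, stroma or microbes.

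Total gene counts were 15545059 to 18817537 in H2BdIEC crypts and 23118463 to 25913155 in control crypts. They were 5774771, 13219451 and 15136734 in H2BdIEC organoids A, B and C and 16803119 to 21386586 in control organoids. The epithelial marker Epcam was at 1055 CPM or more in all 14 libraries. Other epithelial markers were lower in organoids. Vil1 lay at 452 to 545 CPM in organoids and 2685 to 4128 CPM in crypts, and Krt20 at 35.7 to 88.8 CPM and 1328 to 2336 CPM. The leukocyte gene Ptprc lay at 37.0 to 80.9 CPM in H2BdIEC crypts and 40.5 to 76.3 CPM in control crypts. In organoids it was at 0 in all 3 H2BdIEC libraries and at 0 to 0.0511 CPM in the controls, and Cd3e of T cells was at 0 in all 6. Several crypt libraries stood apart. Mitochondrial genes took 9.3 to 15.7% of the counts in H2BdIEC crypts, against 4.33 to 5.09% in control crypts 1 to 3 and 10.4% in control crypt 4. The pancreatic gene Cpa1 reached 72.4 CPM in H2BdIEC crypt 2 and at most 1.39 CPM in any other library.

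Genes that mark the proximal small intestine summed to 19608 to 23522 CPM in H2BdIEC crypts and 9057 to 19086 CPM in control crypts, of which control crypt 2 was the highest. Gastric and Brunner gland genes summed to 16.1 to 77.8 CPM in H2BdIEC crypts and 3.32 to 8.56 CPM in control crypts. Acinar pancreas genes, some of which proximal epithelium also expresses, summed to 949.8 to 1367 CPM in H2BdIEC crypts and 64.8 to 397 CPM in control crypts. Reg1, given with the gastric genes below, made up most of that sum in every H2BdIEC crypt but crypt 2. Of the 12 tested members, 5 were called higher and 1 lower in crypts, against 7.31% and 7.69% of all tested genes. The 5 higher calls ran from 0 to 8 with 1 library left out. No gap between H2BdIEC and control was seen in organoids for the proximal list, at 3176 to 3664 CPM in H2BdIEC organoids and 3021 to 4247 CPM in control organoids. The sum of the gastric list, at low levels, was higher with the deletion in organoids too. It was 7.75 to 14.04 CPM in H2BdIEC organoids and 3.35 to 5.60 CPM in control organoids, without overlap. Most of it in H2BdIEC organoids was Anxa10, at 10.8, 7.52 and 5.41 CPM, against 1.93, 3.07 and 2.35 CPM in control organoids. In organoids 0 of 10 members were called by edgeR (2 at an unadjusted p under 0.05, 0 by DESeq2 and 0 by limma voom). The acinar list summed to 60.4 to 86.6 CPM in H2BdIEC organoids and 48.7 to 64.3 CPM in control organoids, ranges that overlapped. The position along the gut from which the crypts came is not given in the labels. These lists differed between the same crypt groups as every crypt effect described here, and their part in it was tested in no other way than with the covariate described with the counts of calls.

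The deletion effect differed between crypts and organoids for 651 genes, or 3.95% of those tested. It was higher in crypts for 370 genes (2.25%) and lower for 281 (1.71%). For the crypt contrast, 2470 genes were called (15.0%), 1204 higher (7.31%) and 1266 lower (7.69%) in H2BdIEC. For the organoid contrast, 70 genes were called (0.425%), 41 higher (0.249%) and 29 lower (0.176%). These shares of all tested genes are the base against which the counts for each gene list are to be read. The median SE of a log2 fold change was 0.152 in crypts and 0.173 in organoids, and that of the interaction was 0.255. Of the 651 genes, 563 were called in crypts, 37 in organoids, 13 in both and 64 in neither. In 541 of the 651 the crypt estimate was the larger in size, and in 546 the estimates had opposite signs. Over all tested genes the fold changes of crypts and organoids had a Pearson r of 0.037, and over the 70 genes called in organoids one of 0.271, both across genes, which are not independent. The median of all tested genes was 0.00 in crypts, -0.02 in organoids and 0.02 for the interaction.

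**Figure D1:**
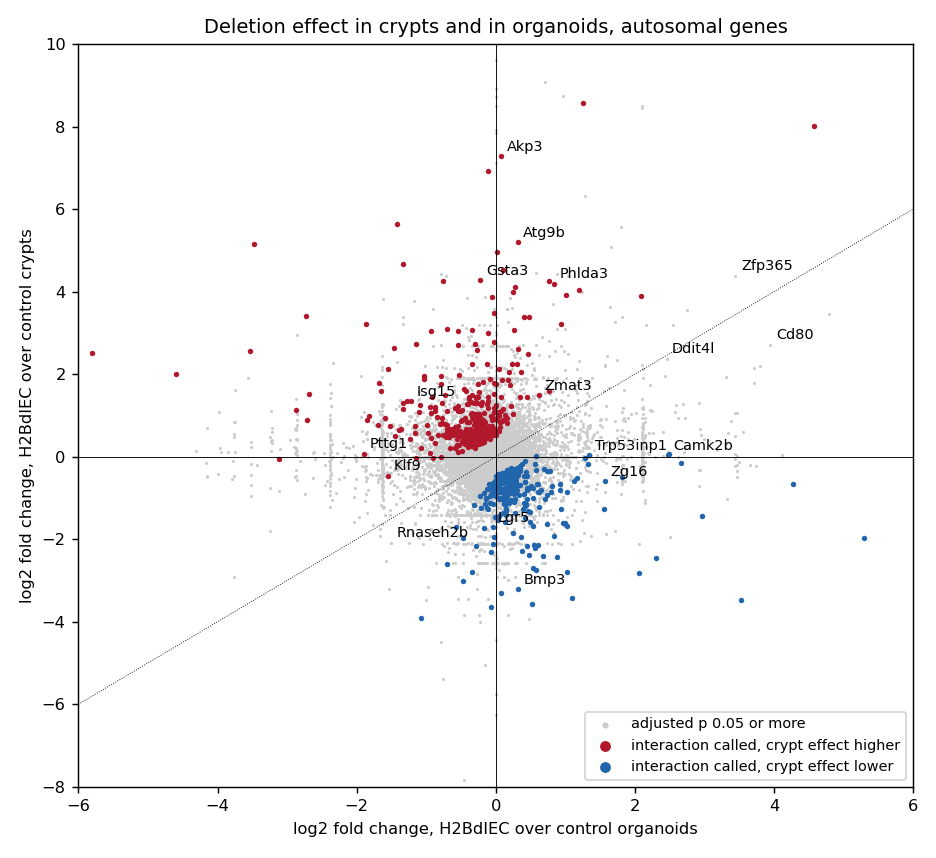
Log2 fold change of H2BdIEC over control in crypts (vertical axis) against that in organoids (horizontal axis), 1 point per autosomal gene, with 4 genes outside the plotted range. Red points are the 370 genes with a higher effect in crypts, blue points the 281 with a lower one, and the dotted line marks equal effects. Rnaseh2b lies near that line at the lower left, while Akp3, Atg9b and Gsta3 lie high above 0 on the crypt axis and near 0 on the organoid axis.

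The count of interaction calls depended on the libraries used. It was 207 without control organoid B, 250 without H2BdIEC organoid B, 305 without control organoid C, 394 without control crypt 3, 423 without H2BdIEC organoid A, 424 without control organoid A and 1027 without control crypt 2. With the mean of the proximal list added as a covariate, a choice made after seeing the data, 57 genes were called, of which 46 were among the 651. Without H2BdIEC crypt 2 and control crypt 4, also chosen after seeing the data, 596 were called, of which 454 were among the 651.

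Rnaseh2b itself was lower in H2BdIEC in both settings. It measured 3.55, 3.23, 3.52 and 2.78 CPM in H2BdIEC crypts, against 18.1, 9.06, 9.66 and 18.9 CPM in control crypts. H2BdIEC organoids had 4.10, 5.98 and 4.63 CPM, against 15.5, 12.6 and 14.2 CPM in control organoids. Every H2BdIEC library lay below every control library of its set, and transcript remained in all 7. The log2 fold change was -2.09 ± 0.24 in crypts (adjusted p = 5.18e-05) and -1.50 ± 0.27 in organoids (adjusted p = 0.016). The interaction of -0.58 ± 0.36 was not called (adjusted p = 0.4), with a 95% interval of -1.34 to 0.17. In bulk samples, fewer cells with a transcript and less transcript per cell cannot be told apart.

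Among 12 genes of RNase H enzymes and ribonucleotide repair, Rnaseh2b included, the interaction was called in 0 by edgeR (2 at an unadjusted p under 0.05, 0 by DESeq2 and 0 by limma voom). Rnaseh2a, the catalytic subunit, was called lower in crypts, at -0.48, and stood at -0.11 in organoids. Lig1, the ligase that seals the repaired strand, was at -0.42 in crypts, where it was called, and at -0.02 in organoids, where it was not. Samhd1, which breaks down deoxynucleotides, rose by 0.42 in crypts, with 0.10 in organoids. Trp53 transcript was called in neither setting. It averaged 31.2 ± 4.64 CPM in H2BdIEC crypts and 38.1 ± 1.47 CPM in control crypts. It averaged 80.5 ± 14.6 CPM in H2BdIEC organoids and 91.2 ± 7.57 CPM in control organoids, and its interaction was -0.11 ± 0.18 (adjusted p = 0.819).

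A group of genes rose with the deletion in crypts and in organoids alike. Of 34 genes called in both settings, 27 moved in the same direction, and for 21 of these the interaction was not called. Ddit4l, an inhibitor of mTOR signalling, measured 3.26, 1.86, 2.68 and 4.55 CPM in H2BdIEC crypts against 0.508, 0.237, 0.793 and 0.878 CPM in control crypts. It measured 8.34, 6.95 and 9.36 CPM in H2BdIEC organoids against 0.966, 1.80 and 1.69 CPM in control organoids. The log2 fold changes of 2.37 ± 0.36 and 2.46 ± 0.36 left an interaction of -0.09, with a 95% interval of -1.28 to 1.11. Ddias, named for suppressing apoptosis after DNA damage, rose by 0.77 ± 0.12 in crypts and 0.79 ± 0.13 in organoids, with an interaction of -0.02 and an interval of -0.40 to 0.35.

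Ccng1, the p53-induced cyclin G1, was at 209 to 319 CPM in H2BdIEC crypts and 90.3 to 134 CPM in control crypts. In organoids it was at 446 to 564 CPM with the deletion and 239 to 280.2 CPM in controls. Its log2 fold changes were 1.37 ± 0.14 in crypts and 0.94 ± 0.17 in organoids, and its interaction of 0.43 had an interval of -0.03 to 0.89. Arnt2, a bHLH-PAS transcription factor, rose by 1.73 ± 0.17 in crypts and 1.17 ± 0.19 in organoids, with an interval of 0.01 to 1.09 for the interaction. Zfp365 and Cd80 were scarce genes that rose in both settings. Zfp365 had 0.284, 0.392, 0.251 and 0.694 CPM in H2BdIEC crypts against 0.0461, 0, 0 and 0 CPM in control crypts, and at most 3 counts in any control crypt. Its level was 3.22, 2.96 and 3.29 CPM in H2BdIEC organoids, against 0.203, 0.286 and 0.358 CPM in control organoids. Cd80, a ligand that costimulates T cells, had 0.588 to 1.08 CPM in H2BdIEC crypts and 0.0991 to 0.142 CPM in control crypts, and 1.11 to 1.75 CPM in H2BdIEC organoids and 0 to 0.153 CPM in control organoids. The fitted folds of both rest on controls with at most 3 counts per library in at least 1 set. An interaction that was not called does not show equal effects, and the intervals of Zfp365 (-0.54 to 2.43) and Cd80 (-2.85 to 0.38) were wide.

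**Figure D2:**
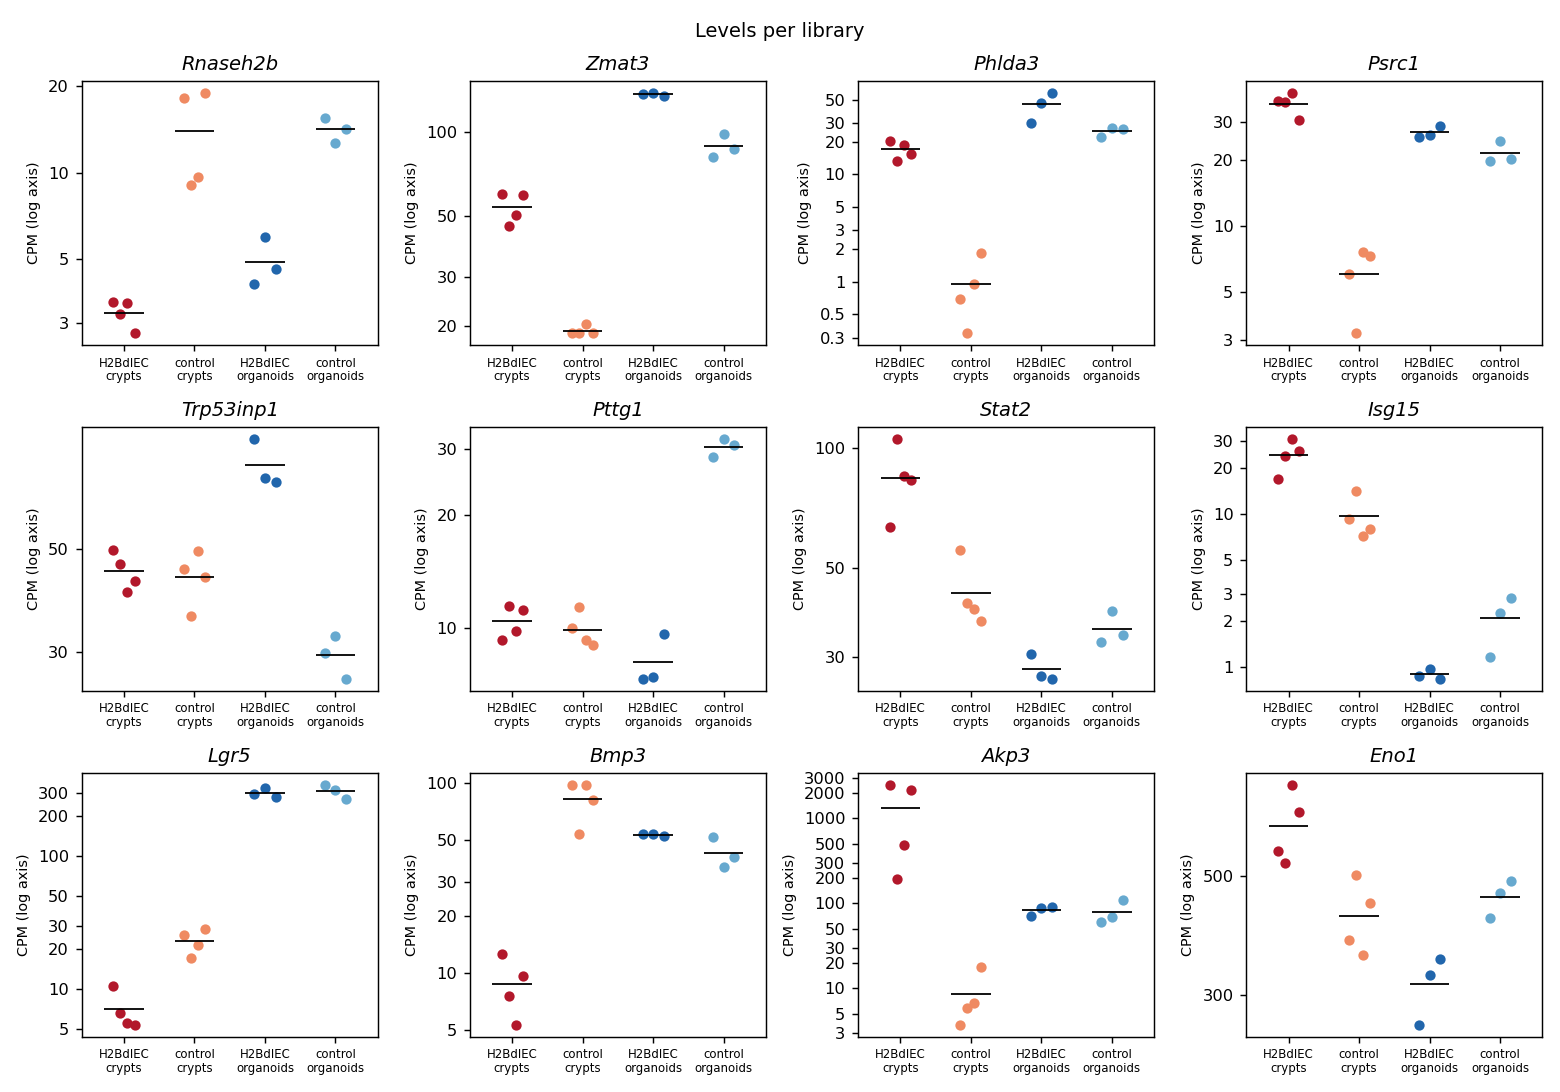
CPM of 12 genes in each of the 14 libraries, on a log axis whose range differs between panels, with a point per library and a line at the mean of each group. Rnaseh2b and Zmat3 differ between H2BdIEC and control in both sets, whereas Pttg1 and Trp53inp1 differ in organoids and overlap in crypts, and Psrc1, Lgr5 and Akp3 separate widely in crypts.

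Genes called in the same direction in both settings could still differ in the size of the effect. Zmat3, an RNA-binding protein and p53 target, measured 59.7, 46.1, 50.3 and 59.4 CPM in H2BdIEC crypts, against 18.9, 18.9, 20.3 and 18.9 CPM in control crypts. Among organoids, the values were 138, 139 and 136 CPM with the deletion and 81.5, 98.7 and 87.2 CPM in controls. The groups were separate in both sets, and the log2 fold change was 1.49 ± 0.10 in crypts and 0.63 ± 0.11 in organoids. The interaction was 0.86 ± 0.14 (adjusted p = 0.00434). Igf2bp3, an RNA-binding protein of fetal tissues, rose by 3.22 ± 0.34 in crypts and 0.94 ± 0.20 in organoids (interaction adjusted p = 0.0066). Its crypt levels were 1.08 to 3.01 CPM in H2BdIEC and 0.165 to 0.396 CPM in controls. Ccp110, a centriole protein, rose by 1.60 ± 0.14 in crypts and 0.76 ± 0.16 in organoids (interaction adjusted p = 0.0333), and its interaction call was lost in 9 of the 14 fits that left out 1 library. Klf9, a Krüppel-like transcription factor, fell in both and by more in organoids. It had 34.3, 33.4, 32.6 and 36.3 CPM in H2BdIEC crypts, against 42.9, 49.0, 48.0 and 48.8 CPM in control crypts. The organoid values were 10.1, 8.94 and 9.03 CPM with the deletion and 24.9, 29.4 and 27.0 CPM in controls. The log2 fold changes were -0.47 ± 0.09 in crypts and -1.54 ± 0.11 in organoids, with an interaction of 1.08 ± 0.14 (adjusted p = 0.000566).

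For 7 genes the calls in crypts and organoids had opposite directions, and 4 of them met the rule for named genes. Oplah, the 5-oxoprolinase of the glutathione cycle, measured 24.4, 31.1, 28.0 and 26.7 CPM in H2BdIEC crypts, against 16.1, 17.4, 17.4 and 18.2 CPM in control crypts. In culture, H2BdIEC organoids measured 15.8, 15.1 and 15.4 CPM, against 22.7, 29.5 and 23.4 CPM in control organoids. Its groups were separate in both sets, with the deletion above its control in crypts and below it in organoids, and with an interaction of 1.38 ± 0.17 (adjusted p = 0.000306). Rin1, a RAS effector, rose by 0.56 ± 0.14 in crypts and fell in organoids, at -0.68 ± 0.14. Dlgap4 was at 0.35 ± 0.08 in crypts and -0.48 ± 0.09 in organoids, both called, with an interaction of 0.84 ± 0.13 (adjusted p = 0.00218). Zg16, a lectin of goblet cell mucus, went the other way. It had 616, 637, 1001 and 979.7 CPM in H2BdIEC crypts and 1550.4, 1157, 792 and 1402 CPM in control crypts, groups that overlapped, and a crypt log2 fold change of -0.60 ± 0.19 (adjusted p = 0.0479). In organoids it measured 16.4, 18.3 and 18.3 CPM with the deletion, against 6.86, 5.48 and 5.62 CPM in controls, a rise of 1.57 ± 0.25.

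Targets of p53 were examined in a pair of lists, and more interactions were called higher in crypts than lower. Of 22 tested genes of arrest and RNA control, the interaction was called higher in 7 and lower in 2, with a median of 0.42, against 0.02 over all genes. Within crypts 15 of the 22 were called higher and 1 lower, and within organoids 3 higher and 0 lower. Organoid calls in this list were 8 by DESeq2 and 6 by limma voom, and 12 members had an unadjusted edgeR p under 0.05. Over all 16463 genes those 2 methods called 198 and 205 in organoids. Of 30 tested genes of cell death and stress, the interaction was called higher in 4 and lower in 0, with a median of 0.10. In crypts 13 of these were called higher and 1 lower, and in organoids 1 higher and 0 lower. Its organoid calls were 4 by DESeq2 and 4 by limma voom, and 9 members had an unadjusted edgeR p under 0.05. The summed level of the arrest list was higher with the deletion in every library of both sets, at 1548 to 1688 CPM in H2BdIEC crypts and 1085 to 1141 CPM in control crypts, and at 1836 to 1974 CPM in H2BdIEC organoids and 1352 to 1504 CPM in control organoids. The death and stress list summed to 1447 to 1557 CPM in H2BdIEC crypts and 1213 to 1375 CPM in control crypts, without overlap. In organoids it summed to 1712 to 1909 CPM with the deletion and 1817 to 1926 CPM in controls, ranges that overlapped.

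Phlda3, a p53-induced brake on AKT, measured 20.6, 13.2, 18.9 and 15.7 CPM in H2BdIEC crypts, against 0.692, 0.332, 0.942 and 1.86 CPM in control crypts. H2BdIEC organoids had 30.4, 46.9 and 57.5 CPM, against 22.3, 27.2 and 26.5 CPM in control organoids. The groups did not overlap in either set, with log2 fold changes of 4.19 ± 0.34 in crypts and 0.84 ± 0.29 in organoids, of which the organoid one was not called (adjusted p = 0.356). The interaction was 3.35 ± 0.44 (adjusted p = 0.00138). Psrc1, a microtubule-associated p53 target, had 37.3, 37.0, 40.8 and 30.5 CPM in H2BdIEC crypts, against 6.00, 3.22, 7.58 and 7.29 CPM in control crypts. It had 25.7, 26.2 and 28.9 CPM in H2BdIEC organoids, against 19.97, 24.6 and 20.4 CPM in control organoids. The crypt rise was 2.60 ± 0.19 and the organoid estimate 0.32 ± 0.21, with an interaction of 2.28 ± 0.28 (adjusted p = 0.000363). Pvt1, a long noncoding RNA next to Myc, rose by 2.48 ± 0.21 in crypts with 0.47 ± 0.23 in organoids (interaction adjusted p = 0.00243).

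Trp53cor1, the long noncoding RNA also called lincRNA-p21, was scarce, with estimates of opposite sign. It measured 1.84, 2.55, 2.26 and 1.47 CPM in H2BdIEC crypts, against 0.138, 0.0474, 0.0991 and 0.110 CPM in control crypts, where no library had more than 3 counts. Its level was 1.32, 0.965 and 1.23 CPM in H2BdIEC organoids, against 1.98, 2.21 and 1.64 CPM in control organoids. The crypt rise was called (adjusted p = 1.87e-06), the organoid estimate of -0.75 ± 0.30 was not, and the interaction had an adjusted p of 3.82e-05. Plk3, a stress-activated polo-like kinase, rose by 1.11 ± 0.17 in crypts and stood at -0.54 ± 0.20 in organoids, with an interaction of 1.65 ± 0.26 (adjusted p = 0.00367). Gdf15, a secreted stress cytokine, had 4.01 to 5.75 CPM in H2BdIEC crypts and 1.19 to 1.52 CPM in control crypts. In organoids its groups overlapped, with 19.6 to 40.6 CPM under the deletion and 33.2 to 37.7 CPM in controls, and its interaction was 1.98 ± 0.30 (adjusted p = 0.00218). Bax and Pidd1, which promote apoptosis, were called higher in crypts at 0.84 and 0.83. Their interactions of 0.71 (interval 0.22 to 1.19) and 0.74 (interval 0.24 to 1.25) were not called.

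Cdkn1a, the p21 inhibitor of cyclin-dependent kinases, measured 111, 136, 143 and 143 CPM in H2BdIEC crypts, against 76.7, 89.8, 81.4 and 73.9 CPM in control crypts. Among organoids, the values were 267, 259 and 257 CPM with the deletion and 210.0, 281 and 260.0 CPM in controls, and there the groups overlapped. It rose by 0.73 ± 0.11 in crypts and stood at 0.06 ± 0.12 in organoids, and the interaction of 0.67 ± 0.17 was called (adjusted p = 0.0325). Tnfrsf10b, a death receptor, had a similar pattern, with 0.83 ± 0.12 in crypts, 0.06 ± 0.14 in organoids and an interaction adjusted p of 0.0262. Gadd45a, a growth arrest and DNA damage gene, was called in neither setting, at 0.14 in crypts and -0.48 in organoids, yet its interaction of 0.62 ± 0.14 was called (adjusted p = 0.0253). With 1 library left out at a time, the call was lost in 10 of 14 fits for Cdkn1a and in 7 of 14 for both Tnfrsf10b and Gadd45a, while Phlda3, Psrc1, Pvt1, Trp53cor1, Plk3 and Gdf15 lost it in 0 of 14.

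Of the 250 bases that precede the RefSeq transcript start of each tested gene with an entry, 0.341% of 10543 genes held the spaced p53 core CATGNNNNNNCATG, which reads the same on both strands. Among the 22 genes of the arrest list, 16 had an entry and 1 of these held the core. Of the 30 genes of the death and stress list, 24 had an entry and 0 of these held it. The gene with the core was Cdkn1a, and its upstream sequence (RefSeq, GRCm38.p6, chr17:29090729-29090978, plus strand) is shown with the core in capitals, 48 bases before the start, because Cdkn1a is the target most often used to read out p53.
Cdkn1a: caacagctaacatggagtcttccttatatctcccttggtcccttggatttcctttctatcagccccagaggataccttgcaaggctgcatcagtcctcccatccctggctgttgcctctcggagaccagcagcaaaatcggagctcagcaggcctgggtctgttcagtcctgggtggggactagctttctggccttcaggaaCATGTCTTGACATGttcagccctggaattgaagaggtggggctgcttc
A match of letters is a description of the sequence and not a bound site.

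The interaction was lower for the other 2 called members of the arrest list. Trp53inp1, a p53-induced regulator of autophagy and cell death, measured 49.6, 46.4, 40.5 and 42.6 CPM in H2BdIEC crypts and 45.2, 35.9, 49.3 and 43.5 CPM in control crypts, groups that overlapped. The organoid values were 85.9, 70.7 and 69.3 CPM with the deletion and 29.8, 32.5 and 26.3 CPM in controls. It rose by 1.34 ± 0.13 in organoids, against 0.04 ± 0.11 in crypts, with an interaction of -1.30 ± 0.17 (adjusted p = 0.000631). Btg2, an antiproliferative p53 target, had the second negative interaction, at -0.56 ± 0.14 (adjusted p = 0.0345), with -0.19 in crypts and 0.37 in organoids, neither of them called. The count of 2 lower calls was 1 without any of 8 single libraries, among them control crypt 3, control crypt 4, H2BdIEC crypt 3 and all organoid libraries but H2BdIEC organoid A.

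Part of the interferon-stimulated genes rose in crypts, and none was called in organoids by edgeR (5 at an unadjusted p under 0.05, 0 by DESeq2 and 0 by limma voom). Of 37 tested members, the interaction was called higher in 7 and lower in 0, and its median was 0.87, with a positive estimate in 34. Within crypts 14 were called higher and 0 lower, with a median of 0.56. Within organoids the median was -0.21. The list summed to 2091 to 2832 CPM in H2BdIEC crypts and 1653 to 2183 CPM in control crypts, ranges that overlapped. It summed to 521 to 785 CPM in H2BdIEC organoids and 607 to 741 CPM in control organoids. The interferon-inducible GTPases, which attack the membranes around microbes inside cells, were a list of their own. Of 14 tested members, 0 were called in crypts by edgeR (2 at an unadjusted p under 0.05, 0 by DESeq2 and 0 by limma voom), with a median of -0.17 and a positive estimate in 5. They summed to 157 to 204 CPM in H2BdIEC crypts and 115 to 360.2 CPM in control crypts, ranges that overlapped. MHC class I antigen presentation is also induced by interferon. Of its 21 genes, 2 were called higher and 3 lower in crypts, against 7.31% and 7.69% of all tested genes. H2-Q10 and H2-Q1, whose counts are uncertain because of close copies, were the higher ones, and Erap1, Psmb8 and Psmb9, which cut peptides for presentation, the lower. A higher interaction was called for H2-Q10, a call lost in 6 of 14 fits that left out 1 library. T cell genes, whose cells both make and answer interferon, summed to 215 to 800.0 CPM in H2BdIEC crypts and 148 to 532 CPM in control crypts, with 0 of 17 members called in crypts by edgeR (0 at an unadjusted p under 0.05, 0 by DESeq2 and 0 by limma voom). In organoids that list summed to 0.725 to 2.05 CPM with the deletion and 1.83 to 2.76 CPM in controls, and the part of such cells in the crypt values was not tested.

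Stat2, which carries the signal of type I and type III interferon receptors to the nucleus, measured 63.6, 105, 85.3 and 83.1 CPM in H2BdIEC crypts, against 55.5, 41.1, 39.6 and 37.0 CPM in control crypts. In culture, H2BdIEC organoids measured 30.6, 27.0 and 26.5 CPM, against 32.8, 39.1 and 34.1 CPM in control organoids. Every H2BdIEC crypt was above every control crypt, and every H2BdIEC organoid was below every control organoid. The log2 fold changes were 0.96 ± 0.14 in crypts and -0.34 ± 0.17 in organoids, and the interaction was 1.30 ± 0.22 (adjusted p = 0.00532). Isg15, a ubiquitin-like protein that is coupled to other proteins, measured 16.9, 24.01, 30.9 and 25.8 CPM in H2BdIEC crypts, against 9.32, 14.1, 7.14 and 7.95 CPM in control crypts. In organoids it measured 0.878, 0.965 and 0.836 CPM with the deletion, against 1.17, 2.25 and 2.81 CPM in controls. It rose by 1.34 ± 0.24 in crypts and stood at -1.21 ± 0.40 in organoids (adjusted p = 0.322), with an interaction of 2.55 ± 0.46 (adjusted p = 0.00707).

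Oas1b, Oas1a and Oasl1 belong to the oligoadenylate synthetase family, which senses double-stranded RNA, and their near-identical copies make the counts of single Oas1 genes uncertain. Oas1b was at 5.44 to 8.33 CPM in H2BdIEC crypts and 1.73 to 2.58 CPM in control crypts, and its interaction was 2.09 ± 0.43 (adjusted p = 0.013). Oasl1 was at 79.8 to 119.7 CPM in H2BdIEC crypts and 47.2 to 62.3 CPM in control crypts, and its interaction was 1.26 ± 0.27 (adjusted p = 0.0165). Ifi35 rose by 0.42 ± 0.11 in crypts with -0.45 ± 0.14 in organoids (interaction adjusted p = 0.0133). Bst2, or tetherin, which holds virus particles at the cell surface, rose by 0.82 ± 0.20 in crypts with -0.30 ± 0.21 in organoids (interaction adjusted p = 0.0405). Oas1a, named after its values were seen because its promoter is shown here, rose by 0.60 ± 0.16 in crypts with -0.43 ± 0.21 in organoids (interaction adjusted p = 0.0414). The count of 7 interaction calls was 3 without H2BdIEC organoid B and 3 without control organoid B, and the 14 crypt calls were 9 without control crypt 3 and 9 without H2BdIEC crypt 4. With the proximal covariate, 1 interaction call remained in the list, that of Stat2.

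The interferon-stimulated response element was searched as GAAANNGAAA on both strands in the same 250 bases. It was found in 3.25% of the 10543 genes with an entry and in 9 of the 26 list members with one (34.6%). Of the 7 members with a higher interaction, 6 had an entry and 4 of these held it. The 4 upstream sequences (RefSeq, GRCm38.p6) are shown because these genes had both the called interaction and the motif, with every match in capitals. They are Isg15 (chr4:156200819-156201068, minus strand), Stat2 (chr10:128270248-128270497, plus strand), Bst2 (chr8:71537473-71537722, minus strand) and Oas1a (chr5:120907526-120907775, minus strand).
Isg15: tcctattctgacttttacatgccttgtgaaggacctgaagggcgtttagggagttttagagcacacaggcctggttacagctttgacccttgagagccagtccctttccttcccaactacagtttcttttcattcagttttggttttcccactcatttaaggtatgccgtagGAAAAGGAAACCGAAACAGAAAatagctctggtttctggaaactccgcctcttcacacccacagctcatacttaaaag
Stat2: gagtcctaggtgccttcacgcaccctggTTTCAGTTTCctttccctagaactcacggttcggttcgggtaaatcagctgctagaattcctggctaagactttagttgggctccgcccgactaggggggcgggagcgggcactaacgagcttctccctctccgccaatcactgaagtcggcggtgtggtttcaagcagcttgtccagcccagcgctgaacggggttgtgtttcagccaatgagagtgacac
Bst2: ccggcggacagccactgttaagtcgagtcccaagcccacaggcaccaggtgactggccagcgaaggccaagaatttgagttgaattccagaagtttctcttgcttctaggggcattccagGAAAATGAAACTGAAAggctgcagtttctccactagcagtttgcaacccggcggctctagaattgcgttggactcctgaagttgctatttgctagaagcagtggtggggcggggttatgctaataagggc
Oas1a: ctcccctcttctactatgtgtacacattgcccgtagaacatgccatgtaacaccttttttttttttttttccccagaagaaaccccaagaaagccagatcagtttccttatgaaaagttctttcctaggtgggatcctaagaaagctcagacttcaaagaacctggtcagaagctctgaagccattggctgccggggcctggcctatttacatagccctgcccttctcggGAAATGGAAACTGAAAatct
The matches are overlapping runs in Isg15 (starting 78 to 66 bases before the start of transcription), Bst2 (130 and 124 bases) and Oas1a (20 and 14 bases). In Stat2 the match is on the other strand, 222 bases before the start. Matches chosen after the expression values were known say nothing on binding.

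Among 13 tested genes of cytosolic nucleic acid sensing, the interaction was called for Dnase2a alone. This gene encodes the lysosomal nuclease that digests engulfed or autophagic DNA. It measured 10.99, 8.33, 8.63 and 6.86 CPM in H2BdIEC crypts, against 4.20, 3.56, 4.26 and 4.83 CPM in control crypts. H2BdIEC organoids had 19.3, 18.7 and 17.6 CPM, against 19.8, 20.6 and 21.7 CPM in control organoids. The interaction was 1.21 ± 0.21 (adjusted p = 0.0062). Within crypts 5 of the 13 were called higher, and within organoids 0 were called by edgeR (2 at an unadjusted p under 0.05, 0 by DESeq2 and 0 by limma voom). Aim2, a sensor of cytosolic DNA, was called in crypts at 1.93, with 0.67 in organoids and an interval of 0.23 to 2.29 for the interaction. Adar, which edits double-stranded RNA, was called in crypts at 0.35, with -0.14 in organoids. Irf3, the factor downstream of the sensors, was at 0.25 in crypts and -0.13 in organoids, neither called.

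**Figure D3:**
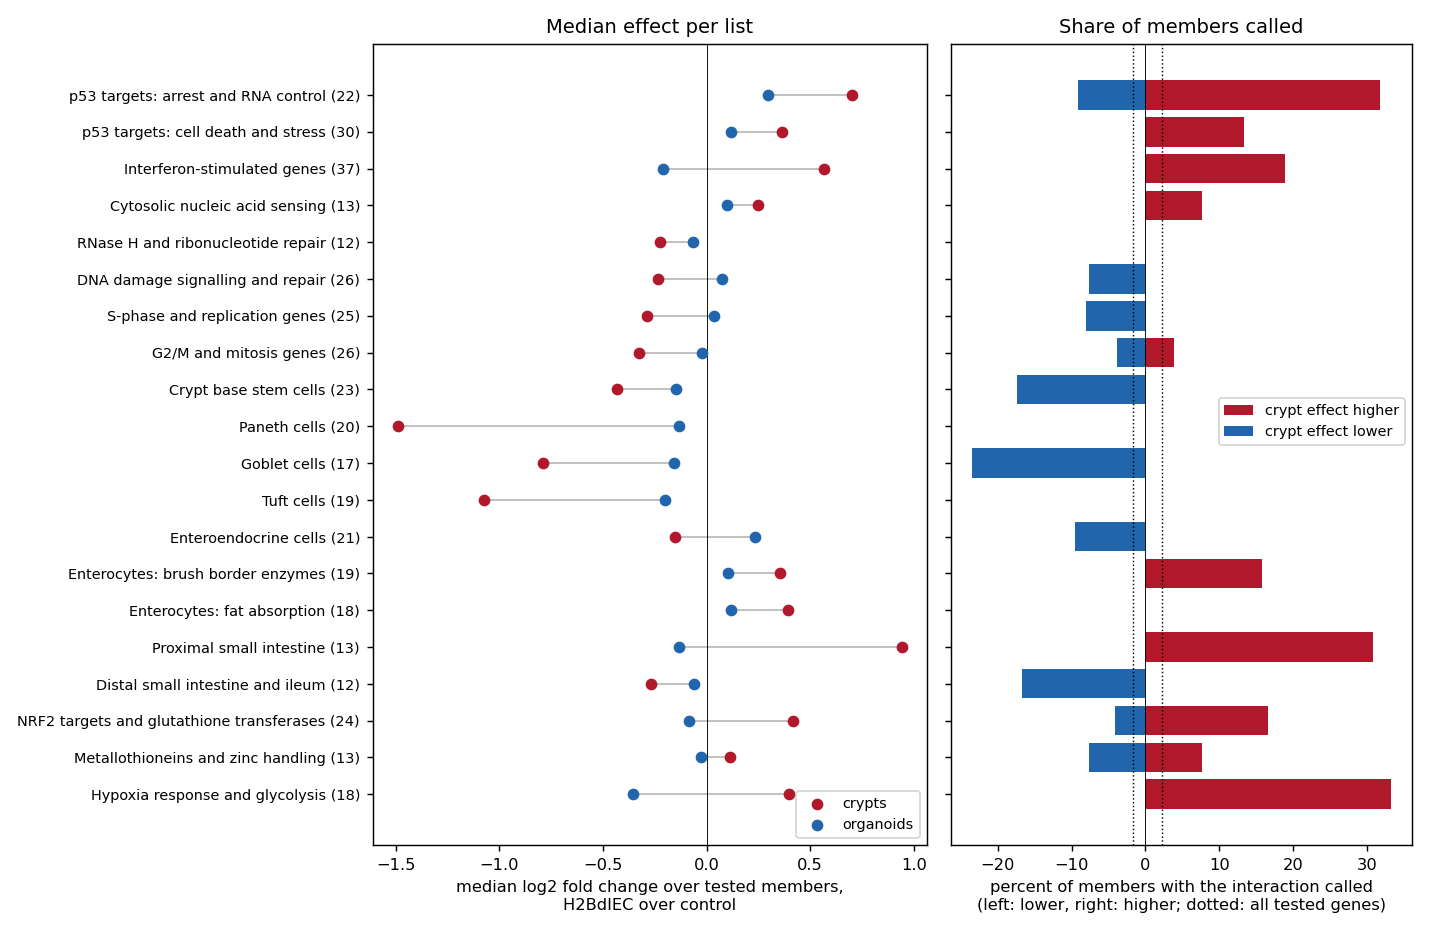
Left, the median log2 fold change of H2BdIEC over control for the tested members of 20 gene lists, with crypts in red and organoids in blue and the number of tested members in parentheses. Right, the percent of members with the interaction called, higher to the right and lower to the left, with dotted lines at 2.25% and 1.71% of all tested genes. The crypt median lies above 0 and the organoid median below it for the interferon, proximal, NRF2, metallothionein and hypoxia lists. The reverse holds for the repair, S-phase and enteroendocrine lists. The organoid medians of the NRF2, metallothionein, repair and S-phase lists lie near 0.

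Part of the DNA repair and cell cycle genes fell with the deletion in crypts. Of 26 genes of DNA damage signalling and repair, 8 were called lower and 1 higher in crypts and 0 in organoids by edgeR (3 at an unadjusted p under 0.05, 0 by DESeq2 and 0 by limma voom). The interaction was called lower in 2 and higher in 0. The 8 lower crypt calls were 2 without H2BdIEC crypt 4, 3 without control crypt 1, 4 without H2BdIEC crypt 3 and 5 without control crypt 3. The 2 interaction calls became 7 without H2BdIEC crypt 1, 0 without control organoid B, and 1 without control crypt 3, H2BdIEC organoid A or B, or control organoid C. Atm, the kinase activated by double-strand breaks, was among the genes with that call. It measured 61.1, 53.9, 47.8 and 41.6 CPM in H2BdIEC crypts, against 85.5, 76.5, 84.5 and 71.9 CPM in control crypts. Its level was 36.7, 29.5 and 26.9 CPM in H2BdIEC organoids, against 30.03, 26.5 and 25.1 CPM in control organoids. The groups were separate in crypts and overlapped in organoids, and the interaction was -0.81 ± 0.19 (adjusted p = 0.0238). Of 25 S-phase genes, 5 were called lower in crypts and 0 in organoids by edgeR (0 at an unadjusted p under 0.05, 0 by DESeq2 and 0 by limma voom). The 5 lower crypt calls were 13 without H2BdIEC crypt 1, and 2 or 3 without any of 10 other libraries. The interaction was called lower in 2, and in 0 to 4 with 1 library left out. They were the thymidine kinase Tk1, at -0.66 ± 0.16 (adjusted p = 0.03), and thymidylate synthase Tyms, at -0.64 ± 0.16 (adjusted p = 0.0312). The median interaction was -0.27 for the repair list and -0.27 for the S-phase list, and 3 of 26 and 1 of 25 estimates were positive. The calls of Tk1 and Tyms were each lost in 7 of 14 fits that left out a library and that of Atm in 5.

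Of 26 genes of G2 and mitosis, 11 were called lower in crypts and 1 in organoids. The organoid gene was Pttg1, securin, which holds sister chromatids together until anaphase. Pttg1 measured 9.29, 11.5, 9.80 and 11.2 CPM in H2BdIEC crypts and 9.97, 11.4, 9.27 and 8.995 CPM in control crypts, groups that overlapped. Among organoids, the values were 7.31, 7.40 and 9.64 CPM with the deletion and 28.7, 32.0 and 30.8 CPM in controls. It fell in organoids, at -1.89 ± 0.15, against 0.07 ± 0.13 in crypts, with an interaction of 1.97 ± 0.19 (adjusted p = 5.04e-05). No fit that left out 1 library lost this call, and it was kept with the proximal covariate. Nusap1, a spindle protein, went the other way. It was called lower in crypts at -0.77, with 0.14 in organoids and an interaction of -0.91 ± 0.22 (adjusted p = 0.032), lost in 10 of 14 fits that left out 1 library. The 11 crypt calls of the list were 3 without control crypt 3, 4 without H2BdIEC crypt 4, 5 without control crypt 1 and 5 without H2BdIEC crypt 2.

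The 12 largest positive interactions among abundant protein-coding genes came from genes that rose in crypts and were not called in organoids. Akp3, the duodenal isozyme of intestinal alkaline phosphatase, measured 2489, 196, 490.3 and 2155 CPM in H2BdIEC crypts, against 3.74, 5.93, 6.79 and 17.9 CPM in control crypts. The organoid values were 71.7, 89.1 and 91.4 CPM with the deletion and 60.9, 68.7 and 110.3 CPM in controls. The H2BdIEC crypts spread more than 10-fold among themselves, and the interaction was 7.21 ± 1.23 (adjusted p = 0.0123). It lost its call without H2BdIEC organoid B (adjusted p = 0.0501). Pdx1, a transcription factor of duodenum and pancreas, measured 30.7, 8.92, 24.7 and 27.4 CPM in H2BdIEC crypts, against 0.461, 2.61, 0.248 and 2.52 CPM in control crypts. In organoids it was at 27.6 to 35.2 CPM with the deletion and 23.1 to 32.2 CPM in controls, with an interaction of 3.74 ± 0.76 (adjusted p = 0.022) that was lost without any of 4 organoid libraries (H2BdIEC A and B, control B and C). Slc40a1, the iron exporter ferroportin, rose by 4.12 ± 0.48 in crypts against 0.27 ± 0.48 in organoids. Scarb1, a receptor for high-density lipoprotein, rose by 2.74 ± 0.31 in crypts against -0.29 ± 0.30 in organoids.

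Gsta3, a glutathione transferase, measured 29.6, 18.0, 44.6 and 48.8 CPM in H2BdIEC crypts, against 2.77, 1.75, 1.29 and 1.43 CPM in control crypts. In culture, H2BdIEC organoids measured 76.5, 62.1 and 60.3 CPM, against 63.1, 83.2 and 84.5 CPM in control organoids. The organoid groups overlapped, and the interaction was 4.49 ± 0.44 (adjusted p = 0.000183). Atg9b, a lipid scramblase of the autophagy machinery, had 2.13 to 5.19 CPM in H2BdIEC crypts and 0 to 0.142 CPM in control crypts, where no library had more than 3 counts. It had 38.9 to 68.8 CPM in H2BdIEC organoids and 31.8 to 49.4 CPM in control organoids. Acta1, skeletal muscle actin, had 117, 123, 83.6 and 71.9 CPM in H2BdIEC crypts, against 14.4, 11, 7.98 and 14.04 CPM in control crypts. It had 33.5 to 47.1 CPM in H2BdIEC organoids and 48.0 to 52.8 CPM in control organoids, and its interaction was 3.40 ± 0.30 (adjusted p = 3.82e-05). Its sequence is close to that of other actins, which makes its counts uncertain. The homeobox gene Meis2 rose by 3.38 ± 0.23 in crypts with 0.48 ± 0.22 in organoids. Ephx1, which opens epoxides, rose by 2.58 ± 0.25 in crypts with -0.28 ± 0.27 in organoids. Cbr3, a carbonyl reductase, stood at 3.05 ± 0.56 in crypts with overlapping groups, -0.54 ± 0.40 in organoids and an interaction adjusted p of 0.0179. The proximal covariate left the interaction called for Acta1, Atg9b, Gsta3, Meis2 and Mt1 among the 12. It did not for Akp3, Slc40a1, Pdx1, Cbr3, Phlda3, Scarb1 and Ephx1. Slc40a1 and Pdx1 are members of the proximal list, so the covariate contains their own values. The loss of their calls was therefore partly built into that fit and says nothing more.

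**Figure D4:**
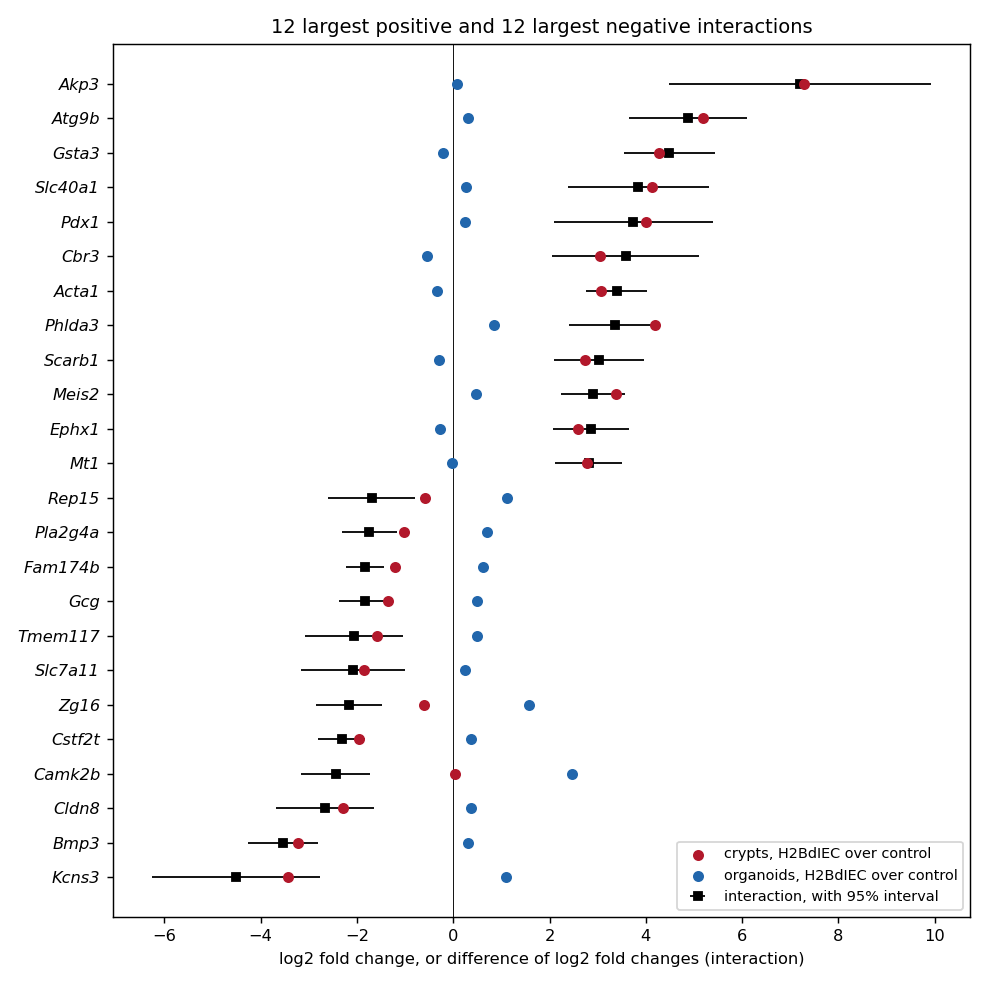
The 12 largest positive and 12 largest negative interactions by the rule for named genes, in order of size down the vertical axis, on a log2 scale. Squares with bars are interactions with 95% intervals, red points are crypt fold changes and blue points organoid fold changes. For the positive genes the organoid points lie between -0.54 and 0.84 and the crypt points between 2.58 and 7.29.

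Of the 12 largest negative interactions, 10 belonged to genes called lower in crypts, and all 12 organoid estimates were above 0. Bmp3, a TGF-beta family ligand that opposes other BMPs, measured 12.6, 7.55, 5.36 and 9.64 CPM in H2BdIEC crypts, against 98.0, 54.0, 97.6 and 81.1 CPM in control crypts. In organoids it measured 54.0, 53.9 and 52.4 CPM with the deletion, against 51.8, 36.2 and 40.8 CPM in controls. The interaction was -3.54 ± 0.34 (adjusted p = 0.000113). Cstf2t, a paralog of the 3' end cleavage factor CstF-64, measured 9.15, 18.1, 15.2 and 10.8 CPM in H2BdIEC crypts, against 49.8, 51.1, 47.1 and 56.8 CPM in control crypts. It measured 55.1, 50.9 and 48.7 CPM in H2BdIEC organoids, against 41.1, 41.4 and 37.7 CPM in control organoids, and its interaction was -2.31 ± 0.23 (adjusted p = 5.3e-05). Fam174b had an interaction of -1.84 ± 0.19 (adjusted p = 6.45e-05), with -1.22 in crypts and 0.62 in organoids. Kcns3, a modifier subunit of potassium channels, had 0.154 to 0.780 CPM in H2BdIEC crypts and 1.34 to 7.35 CPM in control crypts, and 28.3 to 35.8 CPM in H2BdIEC organoids and 11.6 to 18.1 CPM in control organoids. Its interaction was -4.52 ± 0.81 (adjusted p = 0.00973).

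Cldn8, a tight junction claudin, fell in crypts, at -2.29 ± 0.39, with 0.37 ± 0.28 in organoids. Gcg, the proglucagon gene of enteroendocrine L cells, had 8.72, 6.57, 7.62 and 8.79 CPM in H2BdIEC crypts, against 28.0, 15.3, 17.9 and 20.02 CPM in control crypts. H2BdIEC organoids had 162, 132 and 122 CPM, against 91.5, 113 and 90.0 CPM in control organoids, and the interaction was -1.84 ± 0.25 (adjusted p = 0.000891). Pla2g4a, the phospholipase that frees arachidonic acid, had 6.76 to 10.1 CPM in H2BdIEC crypts and 15.3 to 25.5 CPM in control crypts, and an interaction of -1.74 ± 0.27 (adjusted p = 0.00257). Camk2b, a calmodulin-dependent kinase subunit, was called in organoids and not in crypts. It measured 20.9, 16.4, 10.6 and 24.9 CPM in H2BdIEC crypts and 18.9, 22.2, 15.9 and 14.4 CPM in control crypts, groups that overlapped. Its level was 16.2, 15.5 and 14.3 CPM in H2BdIEC organoids, against 2.49, 3.35 and 2.35 CPM in control organoids, a rise of 2.47 ± 0.27, and the interaction was -2.44 ± 0.34 (adjusted p = 0.00119). Slc7a11, the cystine transporter (-2.09 ± 0.51), Tmem117 (-2.07 ± 0.47) and Rep15, an effector of RAB15 (-1.70 ± 0.43), completed the 12 with Zg16, described above. The calls of Slc7a11, Tmem117 and Rep15 were lost in 10, 11 and 7 of 14 fits that left out 1 library. With the proximal covariate, Bmp3, Camk2b, Cstf2t, Fam174b, Kcns3 and Pla2g4a kept the call.

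Part of the stem cell genes of the crypt base fell with the deletion in crypts. Of 23 tested members, 11 were called lower in crypts and 0 in organoids by edgeR (2 at an unadjusted p under 0.05, 0 by DESeq2 and 0 by limma voom). The interaction was called lower in 4 and higher in 0. The list summed to 1586 to 2359 CPM in H2BdIEC crypts and 3209.9 to 3462 CPM in control crypts, without overlap. In organoids it summed to 4388 to 4697 CPM with the deletion and 4405 to 4654 CPM in controls. Lgr5, the receptor for R-spondins that marks these cells, measured 10.6, 6.57, 5.53 and 5.40 CPM in H2BdIEC crypts, against 25.3, 17.2, 21.4 and 28.2 CPM in control crypts. Among organoids, the values were 296, 326 and 279 CPM with the deletion and 346, 316 and 268 CPM in controls. It was at -1.70 ± 0.20 in crypts and -0.05 ± 0.20 in organoids, with an interaction of -1.66 ± 0.28 (adjusted p = 0.0055). Olfm4, a secreted stem cell marker, had 293, 159, 234 and 211 CPM in H2BdIEC crypts, against 824, 713, 643 and 726 CPM in control crypts. The organoid values were 233, 251 and 252 CPM with the deletion and 418, 374 and 307 CPM in controls, lower with the deletion in every library of both sets. Its organoid estimate of -0.58 ± 0.17 was not called (adjusted p = 0.249), and its interaction was -1.12 ± 0.23 (adjusted p = 0.0141). Smoc2, a matricellular protein, and Slc12a2, an ion cotransporter, had interactions of -1.11 ± 0.18 (adjusted p = 0.00367) and -1.26 ± 0.24 (adjusted p = 0.00947). The 4 interaction calls became 7 without control crypt 2 and 8 without H2BdIEC crypt 1, and with the proximal covariate 1 remained, that of Smoc2.

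Part of the Paneth and goblet cell genes fell with the deletion in crypts, and the tuft cell calls there depended on the test. Of 20 Paneth cell genes, which make the antimicrobial peptides of the crypt base, 13 were called lower in crypts and 1 in organoids, while the interaction was called in 0 by edgeR (9 at an unadjusted p under 0.05, 3 by DESeq2 and 2 by limma voom). The list's median interaction was -1.19, from a median of -1.49 in crypts and -0.13 in organoids. The 0 interaction calls became 7 lower without control crypt 2, 2 without control crypt 4 and 3 without both H2BdIEC crypt 2 and control crypt 4. The list summed to 4427, 7508, 23829.8 and 6026 CPM in H2BdIEC crypts, against 13580.4 to 21137 CPM in control crypts. By this sum H2BdIEC crypt 3 was above every control crypt, and the other H2BdIEC crypts were below them all. Defa24 and Ang4, given below, were under every control crypt in H2BdIEC crypt 3 too. The high sum of that library thus rests on other members of the list. In organoids the sums were 1499.8 to 1671 CPM with the deletion and 1925 to 2188.6 CPM in controls. Defa24, an alpha-defensin with close copies that make its counts uncertain, measured 826, 1235, 1065 and 739 CPM in H2BdIEC crypts, against 3059, 1448, 3617 and 6572 CPM in control crypts. In culture, H2BdIEC organoids measured 553, 502 and 489.6 CPM, against 641, 452 and 552 CPM in control organoids. Its interaction of -1.84 ± 0.51 had an interval of -2.93 to -0.74 and an adjusted p of 0.0622. Ang4, an angiogenin that kills bacteria, had 47.4, 71.7, 73.5 and 40.2 CPM in H2BdIEC crypts and 240.2, 132, 387 and 1104 CPM in control crypts, and its interaction of -3.18 ± 0.83 was not called (adjusted p = 0.0638). Itln1, an intelectin, was called lower in crypts at -1.28, with an interaction of -0.94 and an interval of -1.77 to -0.11. In the goblet list of 17, 10 were called lower in crypts and the interaction was called lower in 4, namely Zg16, Ccl6 (-1.56 ± 0.39), Capn9 (-1.22 ± 0.32) and Galnt12 (-0.71 ± 0.19). That count ran between 1 and 8 with 1 library left out, moving by more than 1.5 times for every library but H2BdIEC crypt 2. Of 19 tuft cell genes, 7 were called lower in crypts by edgeR. Crypt calls in this list were 8 by DESeq2 and 0 by limma voom, and 14 members had an unadjusted edgeR p under 0.05. The list summed to 125 to 148 CPM in H2BdIEC crypts, against 132, 160, 241 and 510 CPM in control crypts, ranges that overlapped. Tuft cell genes had 0 interaction calls by edgeR (4 at an unadjusted p under 0.05, 1 by DESeq2 and 0 by limma voom). Examples are Pou2f3, the factor that specifies these cells, at -1.29 in crypts with an interaction interval of -2.41 to -0.10, and the lipoxygenase Alox5, at -1.81 in crypts and at most 3 counts in any control organoid. Tuft crypt calls numbered 2 to 11 with 1 library left out, moving by more than 1.5 times for every library but control organoid B. Among 21 enteroendocrine genes, 2 were called higher and 4 lower in crypts, against 7.31% and 7.69% of all tested genes. The 4 became 2 without control crypt 3 or H2BdIEC crypt 4. A lower interaction was called for Gcg and for the calcium-binding Scgn, at -1.92 ± 0.37 (adjusted p = 0.00889).

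Part of the genes of absorptive cells and of gut position changed in crypts. Of 19 brush border genes, 5 were called higher in crypts, 0 in organoids by edgeR (3 at an unadjusted p under 0.05, 2 by DESeq2 and 0 by limma voom), and 3 in the interaction. These 3 were Akp3, the related alkaline phosphatase Alpi (1.46 ± 0.31, adjusted p = 0.0156) and espin, an actin-bundling protein encoded by Espn (0.90 ± 0.22, adjusted p = 0.0293). Alpi measured 2322, 1193, 1561 and 2599 CPM in H2BdIEC crypts, against 678, 851, 697 and 783 CPM in control crypts. In organoids it measured 103, 85.3 and 104 CPM with the deletion, against 82.7, 109.7 and 123 CPM in controls. The crypt calls of this list were 11 without control crypt 2, and its interaction calls were 0 without H2BdIEC organoid B and 1 without control organoid B. In the list of 13 proximal genes, 8 were called higher in crypts and the interaction was called higher in 4, which were Slc40a1, Pdx1, the iron importer Slc11a2 (1.19 ± 0.24, adjusted p = 0.013) and the carbonyl reductase Cbr1 (1.19 ± 0.23, adjusted p = 0.00807). The proximal crypt calls were 4 without control crypt 1, control crypt 3 or H2BdIEC crypt 4 and 5 without control crypt 4 or H2BdIEC crypt 3, and the interaction calls were 2 without control organoid B. Of 12 distal genes, 0 were called higher and 3 lower in crypts, and the interaction was called lower in 2. Fgf15, the ileal hormone that restrains bile acid synthesis, was scarce and had 0.213, 0.294, 0 and 0.463 CPM in H2BdIEC crypts, against 4.98, 0.237, 1.98 and 3.84 CPM in control crypts. H2BdIEC organoids had 5.27, 2.64 and 3.90 CPM, against 0.254, 0.368 and 0.358 CPM in control organoids, and its interaction was -6.98 ± 1.13 (adjusted p = 0.00546). Mep1a, a brush border metalloprotease, had an interaction of -1.17 ± 0.30 (adjusted p = 0.0451), a call lost in 12 of 14 fits that left out 1 library.

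**Figure D5:**
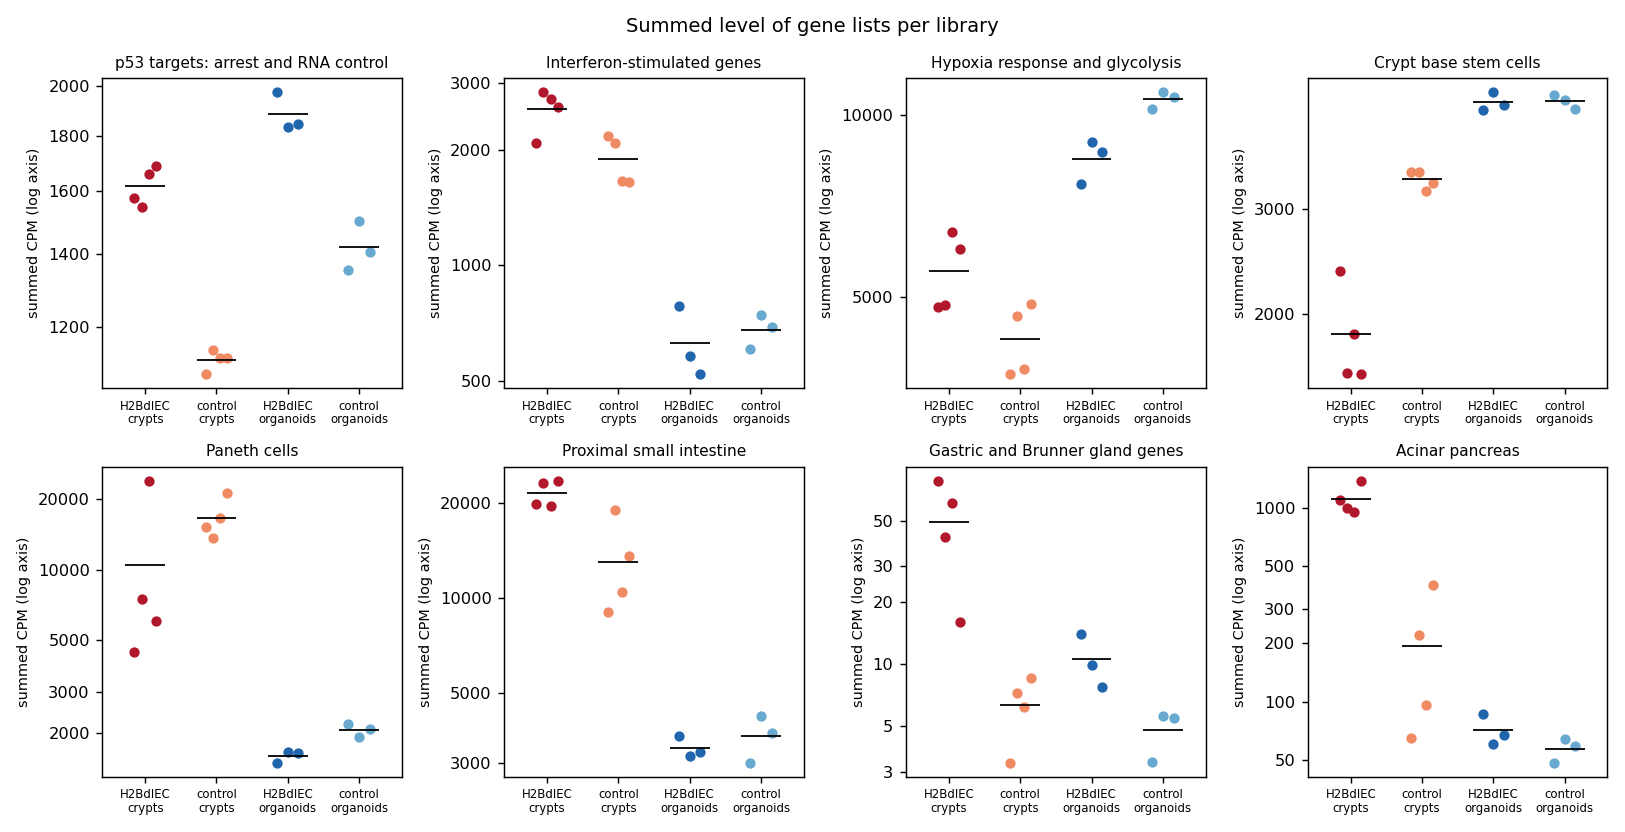
Summed CPM of 8 gene lists in each of the 14 libraries, on a log axis whose range differs between panels, with a point per library and a line at the group mean. The arrest list of p53 targets is higher with the deletion in both sets. The stem cell list is lower in H2BdIEC crypts and level in organoids. The sums of the gastric and acinar lists are higher in H2BdIEC crypts, the acinar one mostly through Reg1 except in crypt 2. The gastric sum is also higher in H2BdIEC organoids, mostly through Anxa10. Control crypt 2 is the highest control crypt for the proximal list.

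Gastric genes reached low levels in H2BdIEC crypts. The mucosal peptide Tff2 had 3.76, 6.37, 4.19 and 1.23 CPM in H2BdIEC crypts, against 0.0923, 0, 0 and 0 CPM in control crypts, where it did not exceed 3 counts per library. In organoids it was at 0.0557 to 0.146 CPM with the deletion and 0.0508 to 0.164 CPM in controls, and its interaction call (adjusted p = 0.0121) rests on counts near 0 in these groups. Ctse, a gastric cathepsin, had 12.3, 1.86, 3.43 and 5.32 CPM in H2BdIEC crypts, against 0.323, 0.332, 0.0991 and 0.329 CPM in control crypts, and its interaction of 3.35 ± 0.94 was not called. Reg1, made by acinar cells and by proximal epithelium, had 1056, 310.2, 903 and 1325 CPM in H2BdIEC crypts, against 24.6, 197, 38.7 and 255 CPM in control crypts, and its interaction of 2.04 ± 1.23 was not called. The interaction was called in 1 of 10 gastric genes and in 0 of 12 acinar genes by edgeR (3 at an unadjusted p under 0.05, 0 by DESeq2 and 0 by limma voom). For the gastric list that count was 0 without control organoid B, 2 without H2BdIEC crypt 1, 2 or 3, 3 without H2BdIEC crypt 4, and 5 by DESeq2. The Tff2 call was lost without control organoid B, with an adjusted p of 0.0937.

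Part of the detoxification genes rose in crypts. In the list of 24 NRF2 targets and glutathione transferases, 11 were called higher in crypts, 0 in organoids by edgeR (2 at an unadjusted p under 0.05, 0 by DESeq2 and 0 by limma voom). The interaction was called higher in 4 and lower in 1. Gsta3, Cbr3, Ephx1 and Gsta4 were the higher ones and Slc7a11 the lower one. Gsta4 measured 174, 78.7, 137 and 197 CPM in H2BdIEC crypts, against 24.5, 27.3, 25.4 and 47.0 CPM in control crypts. Its level was 434, 383 and 396 CPM in H2BdIEC organoids, against 312, 319.9 and 348 CPM in control organoids, and its interaction was 1.93 ± 0.38 (adjusted p = 0.0145). The 4 higher calls were 9 without control crypt 2, 11 without H2BdIEC crypt 2 and 2 without H2BdIEC organoid B. Among metal-handling genes, Mt1, a metallothionein that binds zinc and copper, measured 428, 309, 424 and 465 CPM in H2BdIEC crypts, against 62.6, 36.3, 71.5 and 65.7 CPM in control crypts. Among organoids, the values were 1144, 2096 and 2045 CPM with the deletion and 1894, 1681 and 1806 CPM in controls, and the groups overlapped. The interaction was 2.81 ± 0.33 (adjusted p = 0.000261). Slc39a8, a zinc importer, had the opposite sign, with -0.89 ± 0.12 in crypts, 0.21 ± 0.13 in organoids and an interaction of -1.10 ± 0.18 (adjusted p = 0.00367).

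The medians of hypoxia response and glycolysis genes had opposite signs in crypts and organoids. Of 18 tested members, the interaction was called higher in 6 and lower in 0, with a median of 0.64. The median fold change was 0.40 in crypts, with 6 called higher (3 without control crypt 1, control crypt 3 or H2BdIEC crypt 3) and 2 lower. It was -0.36 in organoids, with 0 called higher and 1 lower. In organoids the list summed to 7691 to 9023 CPM with the deletion, below 10257 to 10909 CPM in controls, whereas it summed to 4819 to 6402 CPM in H2BdIEC crypts and 3729 to 4858 CPM in control crypts. Eno1, enolase, measured 556, 529, 739 and 656 CPM in H2BdIEC crypts, against 379.6, 502, 355 and 444 CPM in control crypts. The organoid values were 264, 327 and 349.8 CPM with the deletion and 417, 463 and 489 CPM in controls. The groups were separate in both sets, higher with the deletion in crypts and lower in organoids, and the interaction was 1.10 ± 0.21 (adjusted p = 0.00815).

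Pkm, pyruvate kinase, had 1163 to 1531 CPM in H2BdIEC crypts and 739 to 1012 CPM in control crypts, and 1024 to 1338 CPM in H2BdIEC organoids and 1504 to 1694 CPM in control organoids, with an interaction of 1.02 ± 0.21 (adjusted p = 0.0131). Adm, the hypoxia-induced vasodilator adrenomedullin, was called in organoids, at -0.97 ± 0.19, and not in crypts, at 0.58 ± 0.27, with an interaction adjusted p of 0.0156. Pfkl, the liver phosphofructokinase, had an interaction of 0.73 ± 0.19, and Vegfa, the endothelial growth factor, one of 1.28 ± 0.30. Their calls were lost in 10 and 9 of 14 fits that left out 1 library. Gapdh was also called, at 1.91 ± 0.34 (adjusted p = 0.00676), but its value is uncertain. It was counted at 542 to 759 CPM in H2BdIEC crypts and 351 to 456 CPM in control crypts, and at 4.95 to 8.97 CPM in H2BdIEC organoids and 8.99 to 19.1 CPM in control organoids. Gapdh and Eno1 have many processed copies in the genome, and how the counting treated reads shared with them in each set was not tested. The 6 interaction calls of the list were 3 without control organoid B and 0 with the proximal covariate.

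Of 18 fetal-like and YAP target genes, the interaction was called higher in 2. Ereg, the growth factor epiregulin, measured 13.2, 12.3, 12.8 and 15.4 CPM in H2BdIEC crypts, against 5.08, 1.66, 4.41 and 3.35 CPM in control crypts. In culture, H2BdIEC organoids measured 4.97, 2.83 and 3.01 CPM, against 4.62, 8.39 and 8.23 CPM in control organoids, and the groups overlapped. It rose by 1.89 ± 0.28 in crypts, stood at -1.04 ± 0.34 in organoids and had an interaction of 2.93 ± 0.44 (adjusted p = 0.00218). Ccn1, a matricellular YAP target, rose by 0.85 ± 0.20 in crypts, with -0.40 ± 0.20 in organoids and an interaction adjusted p of 0.0238, which was lost without H2BdIEC organoid A or B or control organoid A or B.

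Adding the proximal covariate to the fit lowered most of the list counts given here. In the arrest list of p53 targets, 2 interaction calls remained higher, those of Psrc1 and Trp53cor1, and 4 crypt calls, against 15 without it. Because the covariate differs between H2BdIEC and control crypts, a gene effect of the deletion and one of position share it in this fit and cannot be told apart. Leaving out H2BdIEC crypt 2 and control crypt 4 gave 7 higher and 2 lower interaction calls in that list and 5 higher in the interferon list.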

How the data were processed

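The 14 libraries were poly(A) RNA of mouse crypts and organoids, prepared with a stranded mRNA kit, per the labels' protocols. The deposited values are raw read counts per Ensembl gene for each library. The submitters' processing notes name cutadapt 1.5 and 1.9, Trimmomatic 0.36, TopHat2 2.0.14, HTSeq and the GRCm38 build, and the annotation release is not given in the sources used here. Lines that name no gene were left out of totals and tests. In the crypt libraries the reads in no feature made up 30.1 to 35% of the reads in genes, in no feature or ambiguous. No 2 libraries of a group held identical values, and all pairs differed beyond counting noise (chi-square).

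Genes with an ID in both sets and on an autosome were filtered with filterByExpr and scaled by TMM, and 1 quasi-likelihood model over the 4 groups was fitted in edgeR 4.0.16 (R 4.3.3). Contrasts gave the crypt effect, the organoid effect and their difference, with Benjamini-Hochberg adjustment and a threshold of 0.05. The script was tested on simulated data. Alternatives used DESeq2 1.42.0 and limma 3.58.1 (voom), other filters and scalings, a replicate block, and each library left out in turn. Depth was 5774771 to 25913155 counts, which sets the precision of scarce genes. The main model did not pair the organoid libraries by the letters A, B and C.

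Named genes were Rnaseh2b, Trp53 and Cdkn1a, the 12 largest interactions in each direction among called protein-coding genes with an average log2 CPM of at least 3 and a stable sign, up to 6 genes per class of genes called in both sets, and up to 6 members of each list by interaction p (8 for the p53 lists). The rule named 289 genes, of which those that the comparisons turn on are given, and 1 gene lies outside it. Some results are not reported here. The members and the 45 gene lists were chosen with earlier results of these data known. Promoter sequences came from RefSeq (GRCm38.p6).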

Additional observations from a re-analysis of the deposited data

Results flagged for a closer look

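The effect of the deletion differed between crypts and organoids, by the test of the difference itself, for 651 genes. Among them the direction was called opposite for Oplah (interaction 1.38), Rin1 (1.24), Dlgap4 (0.84) and Zg16 (-2.17), all higher with the deletion in crypts and lower in organoids except Zg16, where it was the reverse.

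In 9 of 218 groups of 4 crypt libraries checked over the named genes, 1 library was flagged as apart from the other 3. For some genes the gap was small and the other values were close together. Chance flags about 1 in 20 groups. In H2BdIEC crypts, Adm was at 2.18 CPM in library 3, against 1.06 to 1.18 CPM in the others, and Pla2g4a was at 6.76 CPM in library 2, against 9.48 to 10.1 CPM. In control crypts, Ctse was at 0.0991 CPM in library 3, against 0.323 to 0.332 CPM, and Gsta4 at 47.0 CPM in library 4, against 24.5 to 27.3 CPM. Klf9 was at 42.9 CPM in control crypt 1, against 48.0 to 49.0 CPM, and Zmat3 at 20.3 CPM in control crypt 3, against 18.9 CPM in the others. Hes5 was at 0 in control crypt 2, against 0.0923 to 0.110 CPM. Tff2 at 0.0923 CPM and Zfp365 at 0.0461 CPM in control crypt 1 stood against 0 in the other control crypts, a gap of at most 3 counts.

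With all chromosomes in the fit, the interaction was called for 27 of 656 tested X-linked genes and 4 of 22 mitochondrial genes. The X-linked share was 4.12%, against 4.02% of all 17163 genes in that fit. S100g, an intestinal calcium-binding protein, averaged 160.3 CPM in H2BdIEC crypts and 2.49 CPM in control crypts, and 41.0 CPM in H2BdIEC organoids and 20.3 CPM in control organoids, with an interaction of 5.02 ± 0.94 (edgeR, adjusted p = 0.0182).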

How the results depend on the processing

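The interaction was called for 651 genes. It was called for 643 with DESeq2's size factors, 666 with upper-quartile factors, 615 without robust estimation, 843 with limma voom, 1289 with DESeq2's own test, 1172 with the H2BdIEC organoids that also lack p53 added to the fit, and 57 with the proximal covariate. Leaving out each library in turn gave 207 to 1027. Crypt calls, 2470, were 78 with the covariate and 1412 to 2809 with a library left out, the lowest without control crypt 3 (1412) and without H2BdIEC crypt 4 (1533). Organoid calls, 70, were 198 with DESeq2's own test, 205 with voom, 130 with the p53-deleted organoids added, 112 without H2BdIEC crypt 2 and control crypt 4, and 19 to 83 with a library left out. Each organoid library left out gave 19 to 37.

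With the organoid letter as a replicate block, the interaction was called for 411 genes and organoid effects for 42, against 2015 in crypts. Same-letter deviations correlated at -0.031, -0.395 and 0.291, and those of unlike letters at -0.364 to 0.400. With so few libraries per group, these values cannot decide whether the letters mark pairs.

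Of 86 named genes with the interaction called, 47 stayed called with the same sign under all of the other settings but the covariate and the joint removal of 2 crypt libraries, and no such gene reversed under any setting. Of the named genes without the call, Reg1 ran from -1.73 to 2.91 and Ccng1 from -0.07 to 0.68, both lowest with the covariate, and Ddias, Ddit4l and Trp53 also changed sign. The cause of the changes was not tested. Depth limits H2BdIEC organoid A (5774771 counts) most.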

Other observations

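Further genes with a called interaction belonged to lists not described above. Cxcl16, a chemokine of epithelium, was at 25.5 to 41.6 CPM in H2BdIEC crypts and 7.94 to 17.6 CPM in control crypts, and at 17.1 to 17.3 CPM in H2BdIEC organoids and 17.4 to 22.99 CPM in control organoids, with an interaction of 1.48 ± 0.32 (edgeR, adjusted p = 0.0199). Ddit3, the stress factor CHOP, was at 0.51 ± 0.14 in crypts and -0.52 ± 0.16 in organoids, with an interaction of 1.03 ± 0.21 (edgeR, adjusted p = 0.0138). Ier3, an immediate early gene, was called lower in organoids at -0.87 ± 0.18, with 0.33 ± 0.18 in crypts and an interaction of 1.199 ± 0.26 (edgeR, adjusted p = 0.0168).

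In the Notch list, the target Hes5 was scarce, with 0.392 to 0.851 CPM in H2BdIEC crypts and 0 to 0.110 CPM in control crypts, at most 3 counts in any control crypt, and an interaction adjusted p of 0.0241 by edgeR. Dtx4, a Deltex ubiquitin ligase, had an interaction of -0.90 ± 0.21 (edgeR, adjusted p = 0.0238). Idi1, of cholesterol synthesis, had one of -0.57 ± 0.15 (edgeR, adjusted p = 0.0396), a call lost in 10 of 14 fits that left out 1 library.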
